A study of Mus musculus with 16 samples.

Results

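The respiratory chain probes were read across macrophages grown from the bone marrow of 12 week old C57BL6 mice and measured on 16 single-colour Illumina mouse arrays. Every probe whose platform symbol begins with Nduf, Uqcr, Cox4i, Cox5, Cox6, Cox7, Cox8 or Atp5, or is Sdha, Sdhb, Sdhc, Sdhd or Cycs, was taken when its detection p was under 0.01 on 4 or more arrays. This gave 85 of the 10224 detected probes, for 72 genes, out of 109 probes for 86 genes that carry such a symbol on an array of 25697 probes. The groups are Ndst1-deficient macrophages (Ndst1f/fLysMCre+) given 50 µg/ml aggregated LDL (agLDL) for 24 hours, the same cells untreated, wild-type macrophages (Ndst1f/fLysMCre-) given agLDL, and wild-type macrophages untreated, with 4 arrays each. Ndst1 encodes an enzyme that sulfates heparan sulfate chains. All mice carry the floxed Ndst1 gene, and Cre driven from the lysozyme locus of myeloid cells marks the deficient ones. There were 2 mice per genotype, and each mouse and treatment was read on 2 arrays, numbered 1.1, 1.2, 2.1 and 2.2 for mouse and duplicate.

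The respiratory chain sits in the inner mitochondrial membrane. Complex I (NADH dehydrogenase) and complex II (succinate dehydrogenase) pass electrons to coenzyme Q, complex III hands them on to cytochrome c, and complex IV (cytochrome c oxidase) passes them to oxygen. Complexes I, III and IV pump protons, and complex V (ATP synthase) uses the gradient to make ATP. Most subunits are encoded in the nucleus and a few core ones in mitochondrial DNA. In macrophages, respiration and lipid handling are linked, because fatty acid oxidation feeds the chain.

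The arrays did not follow their labels in the detected probes as a whole: for all 16 arrays the nearest array by Euclidean distance over the 10224 probes carried the same mouse and duplicate number in another group, and for 0 arrays it lay in the same group. Samples are therefore called by their labels, and directions between genotypes rest on those labels. Over the 85 respiratory chain probes the nearest array carried the same number for 11 arrays and lay in the same group for 4. All arrays labelled with one genotype shared a slide, so slide and genotype cannot be told apart. Each number also took fixed positions on both slides, so number and position cannot be told apart either. Between 9241 and 10115 probes were detected per array, and of the 85 respiratory chain probes between 81 and 85. Of 8 macrophage markers, 6 had a probe and all 6 were detected on every array, while the markers of dendritic cells, T and NK cells and mast cells were detected on none. Neutrophil markers were present, with 8 of 9 having a probe and all 8 passing the detection rule. Of 7 erythroid markers 5 had a probe and 1 passed, Epor. Values below are background-corrected, quantile-normalized log2 intensities of a probe, and no gene's level is set against another's from them. In such bulk RNA, fewer cells of a type and less RNA per cell cannot be told apart.

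Promoter sequences from RefSeq (GRCm38.p6, 250 bases before to 50 after the start) were used for 61 of the 72 genes with a detected probe. They were searched on both strands for 4 motifs that are known in promoters of respiratory chain genes: the NRF1 core GCGCANGCG, the ETS site bound by GABPA (CCGGAAGT), the YY1 site AAGATGGC and the ERRA site CAAGGTCA. The NRF1 core lay in 29.5% of these 61 genes, against 7.04% of the 27018 genes whose windows were searched. The YY1 letters lay in 16.4% of them, against 3.19% of all genes, the ETS letters in 8.2% against 4.31%, and the ERRA letters in 4.92% against 1.76%. Any of the 4 motifs was found in 49.2% of the 61 genes and in 14.8% of all genes. The 27018 genes were not limited to those detected here, so these shares do not set the members against other detected genes. By complex, at least 1 motif was found in 9 of 13 genes of complex V, in 13 of 27 of complex I and in 2 of 11 of complex IV. The 4 promoters printed here are those with a match among the members that differed most between mouse or duplicate numbers, with the matched letters in capitals. The motif of Ndufaf4 and of Ndufaf5 is palindromic and gives 2 overlapping matches. The windows are chr4:24897833-24898132 on the plus strand for Ndufaf4, chr2:140170396-140170695 on the plus strand for Ndufaf5, chr13:114388045-114388344 on the minus strand for Ndufs4 and chr4:116075021-116075320 on the minus strand for Uqcrh. Capitals mark the NRF1 core in the windows of Ndufaf4 and Ndufaf5, the YY1 site in that of Ndufs4 and, on the reverse strand, the ETS site in that of Uqcrh.
Ndufaf4: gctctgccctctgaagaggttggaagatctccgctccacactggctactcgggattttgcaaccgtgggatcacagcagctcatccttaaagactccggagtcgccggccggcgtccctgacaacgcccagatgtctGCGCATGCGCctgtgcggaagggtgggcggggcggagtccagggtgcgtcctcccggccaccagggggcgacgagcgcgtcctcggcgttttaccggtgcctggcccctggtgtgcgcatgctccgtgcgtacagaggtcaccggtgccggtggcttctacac
Ndufaf5: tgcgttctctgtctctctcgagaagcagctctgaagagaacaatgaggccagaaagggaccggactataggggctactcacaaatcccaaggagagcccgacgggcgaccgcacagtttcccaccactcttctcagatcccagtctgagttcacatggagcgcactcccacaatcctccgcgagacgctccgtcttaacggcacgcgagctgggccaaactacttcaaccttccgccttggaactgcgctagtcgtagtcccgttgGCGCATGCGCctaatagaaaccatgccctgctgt
Ndufs4: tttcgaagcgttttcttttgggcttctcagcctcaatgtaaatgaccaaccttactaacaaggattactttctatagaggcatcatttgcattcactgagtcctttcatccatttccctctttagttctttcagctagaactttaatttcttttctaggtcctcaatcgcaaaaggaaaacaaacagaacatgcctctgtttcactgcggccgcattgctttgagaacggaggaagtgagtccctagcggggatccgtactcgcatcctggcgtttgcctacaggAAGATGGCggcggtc
Uqcrh: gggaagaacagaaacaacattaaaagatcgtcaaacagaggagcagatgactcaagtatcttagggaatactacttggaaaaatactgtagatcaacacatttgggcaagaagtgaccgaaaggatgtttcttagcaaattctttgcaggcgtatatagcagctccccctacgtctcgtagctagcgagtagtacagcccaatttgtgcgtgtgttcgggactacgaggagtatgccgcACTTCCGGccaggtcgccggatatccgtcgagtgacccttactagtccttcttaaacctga

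The NRF1 match begins at position -113 from the start in Ndufaf4 and at position 17 in Ndufaf5. In Ndufs4 the YY1 match begins at position 36, and in Uqcrh the ETS match at position -11. No match was found in the windows of Atp5g1, Ndufb6, Ndufa12, Atp5e, Cox7a2l, Ndufc2, Ndufaf7 or Cox7a1, which says only that these letters are not in those 300 bases. A match is a description of the sequence and no evidence of binding.

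Of the 85 probes, 38 belong to complex I, 4 to complex I assembly factors, 4 to complex II, 7 to complex III, 16 to complex IV and 16 to complex V. They covered 30 of 34 complex I genes, 6 of 8 complex III genes, 14 of 19 complex IV genes and 15 of 16 complex V genes. On all 16 arrays 77 of the 85 were detected, and 8 on 5 to 15 arrays. The other 24 of the 109 probes did not pass, 18 of them on no array and 6 on 1 or 2. Among these were both probes of Cycs, the electron carrier cytochrome c, of which 1 was detected on 2 arrays, and the only probes of Ndufs1, the largest iron-sulfur subunit of complex I, and Uqcrfs1, the Rieske iron-sulfur protein of complex III. The tissue-restricted isoforms Cox4i2, Cox6b2, Cox7b2, Cox8b and Cox8c of complex IV were likewise detected on no array. The muscle isoforms Cox6a2 and Cox7a1 were detected on every array. For succinate dehydrogenase, Sdhb, Sdhc and Sdhd could be read, Sdhd on only 5 arrays.

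The median standard deviation of the 85 probes across the 16 arrays was 0.153 on the log2 scale, against 0.256 over all detected probes. Of the 85, 29 had a mean log2 intensity from 11 to 13 and 24 of 13 or more. Among other probes the median size of the mouse number difference was 0.169 under a mean of 7 and 0.0856 at 13 and over. For respiratory chain probes it was 0.0982 and 0.0452 in these bins, but from 7 to 9 it was 0.195 against 0.157. The part of brightness in the smaller spread was not tested. The mouse and duplicate number accounted for a median of 31.1% of a respiratory chain probe's variance, against 49.7% over all detected probes. The labelled group accounted for 19.6% against 12.2%. Either share is positive even where nothing differs, because 4 means are fitted to 16 arrays. The group shares therefore cannot show either an effect of genotype or agLDL or its absence, and they carry no test. Among the complexes the share of the number ran from 13.3% in complex II to 37.4% in complex III, and it was 72% in the 4 assembly factor probes. Across the 16 arrays the median correlation between probes of different respiratory chain genes was 0.123, and it was 0.122 within a complex. Probes of 1 gene correlated with a median of 0.444. These correlations share the arrays and their normalization and carry no test.

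Mouse number separated few subunits, and those it separated were mostly lower in mouse number 2. In limma over all 16 arrays, with group as a term, 10 of the 85 probes had an adjusted p under 0.05 between mouse number 2 and mouse number 1, which is 11.8% against 30.9% of the 10224 detected probes. One of the 10 was higher, against 16.3% of all probes, and 9 were lower, against 14.6%. The median difference of the 85 was -0.01 on the log2 scale, and that of all probes 0.01. No respiratory chain probe differed by 1.5-fold or more, while 5.67% of all probes were called at that size. The 8 arrays on a side come from 2 mice, 1 of each genotype label, so a p-value here measures a spread that is partly technical. A mouse number is not one animal, since each genotype has its own mice. Within the 8 arrays of a single slide, 3 of the 85 were called on slide 1 (3.53%, against 13.3% of all probes) and 0 on slide 2 (against 8.82%). On the means of a mouse and treatment 5 of the 85 were called (5.88%, against 22.3%).

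Of 8 probes for assembly factors of complex I, 4 were detected, and 3 of these were called lower in mouse number 2. Ndufaf4, which binds early assembly intermediates of complex I, read 8.96, 9.45 and 10.04 (lowest, median and highest of 8 arrays) in mouse number 2, against 9.44, 10.01 and 10.48 in mouse number 1. The ranges overlap, since Ndufaf4 also differed between duplicates, and within each duplicate number and group the arrays of mouse number 2 were lower (log2 difference -0.42 ± 0.08 SE, limma adjusted p = 0.00164). Ndufaf5, which modifies the core subunit Ndufs7, read 8.12 to 8.35 in mouse number 2 (median 8.27), against 8.46 to 8.76 in mouse number 1 (median 8.56). Its arrays did not overlap between mouse numbers (-0.34 ± 0.06, limma adjusted p = 0.000725). Ndufaf7, a methyltransferase needed for complex I assembly, read 7.76 to 8.13 in mouse number 2, against 8.05 to 8.44 in mouse number 1 (-0.29 ± 0.07, limma adjusted p = 0.00649). On the means of a mouse and treatment Ndufaf4 and Ndufaf5 passed, and Ndufaf7 did not (limma adjusted p = 0.052). Within a single slide all 3 kept their direction. Ndufaf5 lost its call on slides 1 and 2 (limma adjusted p = 0.0799 and 0.0534), as did Ndufaf7 (0.154 and 0.117). Ndufaf4 lost its call on slide 2 (limma adjusted p = 0.0946). The probe of Ndufaf1, which works with early membrane intermediates, differed by 0.07 ± 0.14 and did not pass (limma adjusted p = 0.767).

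The muscle isoforms of complex IV went opposite ways. Cox6a2, the heart and skeletal muscle form of subunit 6a, read 9.47 to 9.82 in mouse number 2 (median 9.63), against 9.91 to 10.23 in mouse number 1 (median 9.98). No array of one side reached the other (-0.38 ± 0.07, limma adjusted p = 0.00127). Cox7a1, the muscle form of subunit 7a, was the only respiratory chain probe called higher in mouse number 2. It read 8.40, 8.57 and 8.80 in mouse number 2, against 7.92, 8.23 and 8.44 in mouse number 1, with 1 array of number 1 above the lowest of number 2 (0.39 ± 0.08, limma adjusted p = 0.00192). Within a single slide both isoforms kept their direction. Cox7a1 lost its call on slides 1 and 2 (limma adjusted p = 0.0977 and 0.0574), and Cox6a2 on slide 2 (0.113). The widely expressed counterparts gave Cox6a1 differences of 0.04 ± 0.07 and 0.01 ± 0.05 on its pair of probes and a Cox7a2 difference of -0.12 ± 0.09, none of which passed.

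In complex I, 4 of 38 probes were called lower and 0 higher in mouse number 2. They were 2 of the 4 probes of Ndufs4, an accessory subunit mutated in Leigh syndrome, and 1 each of the accessory subunits Ndufa12 and Ndufb3. The Ndufs4 probe ILMN_2640944 read 9.02, 9.33 and 9.83 in mouse number 2, against 9.34, 9.60 and 9.96 in mouse number 1 (-0.30 ± 0.08, limma adjusted p = 0.0134). That call was lost on the means of a mouse and treatment (limma adjusted p = 0.0521), without the group as a term (0.0697) and within slide 2 (-0.145, limma adjusted p = 0.406). The other called Ndufs4 probe, ILMN_1234521, differed by -0.18 ± 0.05, and the 2 probes that were not called by -0.25 ± 0.13 and -0.08 ± 0.11, so all 4 lay on the same side. Ndufa12 differed by -0.26 ± 0.07 (limma adjusted p = 0.0118) and Ndufb3 by -0.22 ± 0.08 (limma adjusted p = 0.0498). In complex V only Atp5o, a peripheral stalk subunit, was called (-0.16 ± 0.05, limma adjusted p = 0.0383). Complexes II and III had 0 called of 4 and of 7 probes, with 0 in either at an unadjusted p under 0.05.

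Arrays that did not overlap between mouse numbers were found for 2 of the 85 probes, Cox6a2 and Ndufaf5, which is 2.35% against 3.83% of all detected probes. Of 9 stromal and endothelial markers, 3 passed the detection rule (Acta2, Sparc and Col1a1) and 5 were detected on no array. The summed log2 level of those 3 lay between 9.76 and 10.35 in mouse number 2, against 11.40 to 11.97 in mouse number 1. Most of the 7 summed probes were of Acta2, while Sparc was detected on 8 arrays and Col1a1 on 4, so the sum does not stand for the whole list. Neutrophil markers had a summed level of 14.19 to 14.66 in mouse number 2, against 13.85 to 14.29 in mouse number 1. The part of these in the differences of the respiratory chain was not tested.

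**Figure D1:**
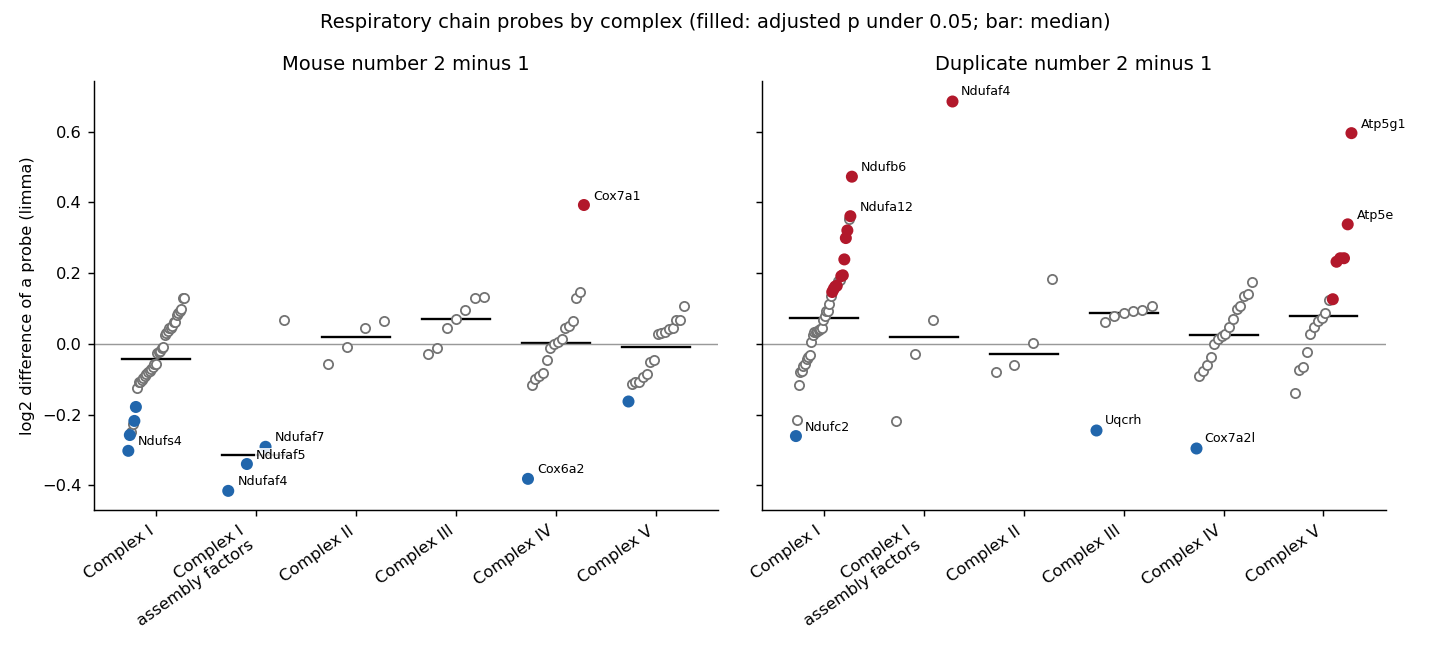
Log2 difference of each of the 85 respiratory chain probes by complex, for mouse number 2 minus 1 (left) and duplicate number 2 minus 1 (right). Filled points passed at an adjusted p under 0.05 in limma (red higher, blue lower), open points did not, and bars are medians. The assembly factors of complex I lie lowest on the left, and called points of complexes I and V lie mostly above zero on the right.

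Duplicate number separated more probes, and most of those called were higher in duplicate number 2. Between duplicate number 2 and duplicate number 1, 21 of the 85 probes were called (24.7%, against 46% of all detected probes). Of these, 18 were higher, against 22.4% of all probes, and 3 lower, against 23.7%. The median difference of the 85 was 0.07 on the log2 scale with quantile normalization, against -0.01 over all probes, but it was -0.01 against -0.04 when the arrays were scaled to a common median. With median scaling 13 of the 85 were called, 9 higher and 4 lower, against 45.4% of all probes. The direction of the median thus turns with the scaling. With quantile normalization each of the 21 called probes moved the same way in all 4 groups. The fit that picked these 21 used the same arrays and favours such probes, so this adds no support. Of them, Ndufaf4 and Atp5g1, differed by 1.5-fold or more, where 10.7% of all probes were called at that size. Within slide 1, 4 of the 85 were called (4.71%, against 27.2% of all probes), and within slide 2, 6 (7.06%, against 23.7%), all higher.

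Complex V had 6 of 16 probes called higher and 0 lower, and with median scaling 4 higher and 1 lower. Atp5g1, 1 of 3 genes for the c subunit of the rotor ring, read 12.67, 12.81 and 13.12 in duplicate number 2, against 11.95, 12.25 and 12.52 in duplicate number 1. The ranges did not overlap (0.60 ± 0.08, limma adjusted p = 4.22e-05). The other c subunit genes, whose mature proteins are the same, gave -0.14 ± 0.06 for Atp5g2 (limma adjusted p = 0.0939) and 0.07 ± 0.06 for Atp5g3 (limma adjusted p = 0.341), and neither passed. Atp5b, the catalytic beta subunit, read 14.80 to 14.93 in duplicate number 2, against 14.44 to 14.75 in duplicate number 1, again without overlap (0.24 ± 0.05, limma adjusted p = 0.00225). The central stalk subunits Atp5e and Atp5d differed by 0.34 ± 0.08 and 0.23 ± 0.05, and the peripheral stalk subunits Atp5o and Atp5pb by 0.24 ± 0.05 and 0.13 ± 0.05. Atp5e was dim, with 15 of 16 arrays detected, and it lost its call within slide 1 (limma adjusted p = 0.295).

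Of the 38 complex I probes, 11 were called higher and 1 lower in duplicate number 2, and with median scaling 4 higher and 1 lower. Ndufb6, an accessory membrane-arm subunit, read 13.03 to 13.18 in duplicate number 2 (median 13.11), against 12.45 to 12.87 in duplicate number 1 (median 12.62). It had no overlap (0.47 ± 0.06, limma adjusted p = 1.59e-05), and its dimmer second probe, ILMN_2914507, detected on 15 arrays, differed by 0.35 ± 0.17 and did not pass (limma adjusted p = 0.115). Ndufa12, an accessory subunit related to an assembly factor, read 12.50, 12.63 and 12.86 in duplicate number 2, against 12.12, 12.18 and 12.65 in duplicate number 1 (0.36 ± 0.07, limma adjusted p = 0.000757). Within slide 1 Ndufa12 lost its call (limma adjusted p = 0.0706). Both probes of the accessory subunits Ndufa8 and Ndufc1 were called higher, by 0.16 ± 0.05 on each Ndufa8 probe and by 0.30 ± 0.09 and 0.24 ± 0.06 on those of Ndufc1. The remaining called probes were Ndufs6, Ndufs7, Ndufa10, Ndufs4 and Ndufs5-ps, at 0.15 to 0.32. Ndufs5-ps is annotated as a pseudogene of Ndufs5, so its probe may also read Ndufs5. Ndufv1, the flavin-bearing core subunit, differed by -0.03 ± 0.06 and did not pass.

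Ndufaf4 had the largest difference of the 85 probes: 9.66, 10.10 and 10.48 in duplicate number 2, against 8.96, 9.34 and 9.85 in duplicate number 1 (0.69 ± 0.08, limma adjusted p = 1.45e-05). It was also among 4 probes called between mouse numbers and between duplicate numbers, with Ndufa12, Atp5o and the Ndufs4 probe ILMN_1234521. All 4 were lower in mouse number 2 and higher in duplicate number 2. The other 3 assembly factor probes were not called between duplicates, at -0.22 ± 0.14 for Ndufaf1, -0.03 ± 0.06 for Ndufaf5 and 0.07 ± 0.07 for Ndufaf7.

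3 subunits fell in duplicate number 2. Cox7a2l, which joins complexes III and IV into supercomplexes and is known to have a shortened form in C57BL/6 mice, read 12.13 to 12.40 in duplicate number 2 (median 12.30), against 12.47 to 12.70 in duplicate number 1 (median 12.59). Its arrays did not overlap (-0.29 ± 0.06, limma adjusted p = 0.000752). Ndufc2, an accessory subunit of complex I, read 12.16, 12.72 and 12.80 in duplicate number 2, against 12.86, 12.92 and 12.99 in duplicate number 1 (-0.26 ± 0.08, limma adjusted p = 0.0175). The hinge protein Uqcrh of complex III read 13.18 to 13.64 in duplicate number 2, against 13.47 to 13.75 in duplicate number 1 (-0.24 ± 0.06, limma adjusted p = 0.00643). Cox7a2l, Ndufc2 and Uqcrh each kept their direction but lost their call within either slide. In all, 6 of the 85 probes had no overlap between duplicate numbers (7.06%, against 9.58% of all probes), Atp5g1, Ndufb6, Atp5b and Ndufs5-ps higher and Cox7a2l and Ndufc2 lower.

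Complex IV had 0 of 16 probes called higher and 1 lower, with 3 of its 16 at an unadjusted p under 0.05. Without background correction, and again with the deposited normalized values, complex IV had 2 higher and 1 lower. Complex III had 0 of 7 higher and 1 lower, and complex II 0 of 4 called, with 1 of its 4 at an unadjusted p under 0.05. The main subunits Cox4i1 and Cox5a differed by 0.02 ± 0.08 and -0.08 ± 0.07, Ndufa4, counted with complex IV, by 0.11 ± 0.07, and the core subunit Uqcrc1 by 0.09 ± 0.06. None of these passed. The probes of Cox6a1, Cox6b1 and Cox8a, all of complex IV, gave between -0.00 and 0.10, and none passed.

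**Figure D2:**
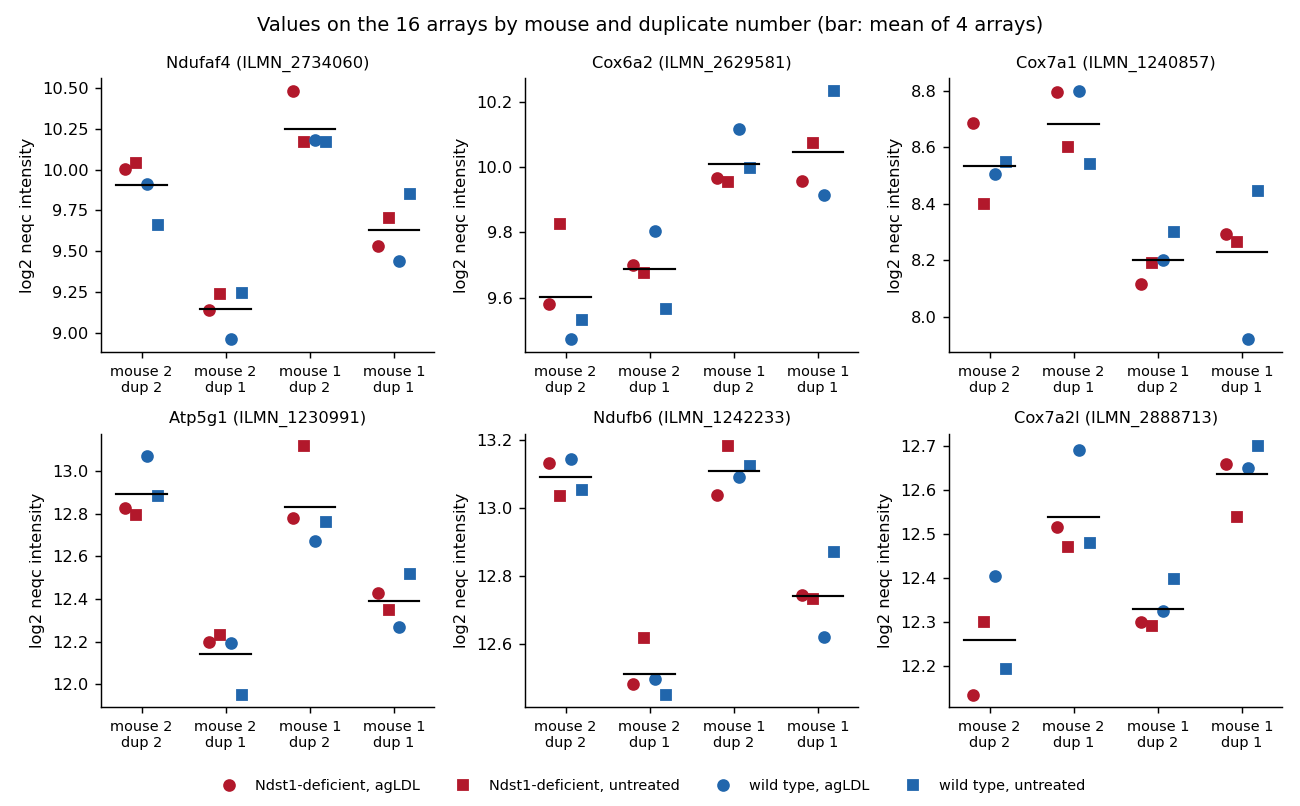
Log2 intensity of 6 respiratory chain probes on each of the 16 arrays, by mouse and duplicate number (bars are means of 4 arrays, colours and symbols the labelled groups). Cox6a2 and Cox7a1 separate by mouse number, Atp5g1, Ndufb6 and Cox7a2l by duplicate number, and Ndufaf4 by both.

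Within mouse number 1, 7 of the 85 probes were called between duplicates (8.24%, against 26.1% of all probes), and within mouse number 2, 14 (16.5%, against 34.2%). The difference between these duplicate effects was called for 0 of the 85 probes in limma, with 0 at an unadjusted p under 0.05, and for 8 of all probes (0.0782%). Summed B cell markers, of which Cd79b alone of 4 passed the detection rule, lay between 7.92 and 8.27 in duplicate number 2, against 8.68 to 9.22 in duplicate number 1. Their part in the duplicate differences was not tested. Macrophage markers summed to 16.05 to 16.26 in duplicate number 2, against 16.24 to 16.55 in duplicate number 1.

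Calls were also set beside those of other probes of like brightness. Between mouse numbers, 0 of 9 respiratory chain probes with a mean log2 intensity under 7 were called (against 26.6% of other probes), 4 of 10 from 7 to 9 (40%, against 32.2%) and 4 of 13 from 9 to 11 (30.8%, against 33.5%). In the brighter bins 2 of 29 were called from 11 to 13 (6.9%, against 34.5%) and 0 of 24 at 13 or more (against 20.7%). The lower share of the 85 between mouse numbers thus lay in the dimmest and the brighter bins, while from 7 to 11 it was close to or above that of other probes. Between duplicate numbers the shares were 1 of 9 (11.1%, against 36.6%), 1 of 10 (10%, against 48.8%) and 3 of 13 (23.1%, against 50.4%) in the 3 dimmer bins, and in the brighter ones 12 of 29 (41.4%, against 51.5%) and 4 of 24 (16.7%, against 40.3%). The median size of the difference at 11 to 13 was 0.10 for respiratory chain probes between duplicates and 0.17 for the others. These shares are a description without a test.

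Genes that build the chain and supply it were read from lists of their own. Of 37 detected probes for assembly factors and other chain genes outside the rule, such as Cyc1, the cytochrome c1 of complex III, 18 were called lower and 0 higher in mouse number 2 (48.6%), with a median of -0.18. Cox18, which inserts a core subunit of complex IV into the membrane, differed by -0.61 ± 0.09 (limma adjusted p = 0.000277) and -0.58 ± 0.09 (limma adjusted p = 0.000291) on its probes. Of 89 probes of the mitochondrial ribosome, which makes the subunits encoded in mitochondrial DNA, 27 were called lower and 1 higher, with a median of -0.12. Mrpl47 (-0.64 ± 0.08), Mrps10 (-0.51 ± 0.08 and -0.34 ± 0.10) and 1 Mrpl1 probe (-0.47 ± 0.06) passed among them. The other Mrpl1 probe, dimmer and detected on 15 arrays, differed by -0.03 ± 0.13 and did not pass (limma adjusted p = 0.881). Of 15 probes for coenzyme Q synthesis, 6 were lower and 0 higher. The other lists were mixed or small, with 3 higher and 4 lower of 25 import probes, 1 higher and 0 lower of 13 for the citric acid cycle, 0 higher and 1 lower of 16 for regulators, and 0 higher and 1 lower of 6 for carriers. These counts stand beside 16.3% higher and 14.6% lower over all probes, and with median scaling the assembly factors, ribosome and coenzyme Q lists had 13, 25 and 6 lower.

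Between duplicate numbers the counts of these lists stand beside 22.4% higher, 23.7% lower and 46% called over all probes. The share called was 36% for the ribosome, 35.1% for assembly factors, 44% for import, 53.3% for coenzyme Q synthesis, 69.2% for the citric acid cycle, 66.7% for carriers and 12.5% for regulators. The mitochondrial ribosome had 32 of 89 probes called higher and 0 lower in duplicate number 2, with a median of 0.14 (26 higher and 0 lower with median scaling). Mrps28 differed by 1.15 ± 0.12 and Mrps18b by 1.11 ± 0.08 and 0.91 ± 0.07. Among the assembly factors 11 of 37 were higher and 2 lower, among them Cox18 (0.85 ± 0.09 and 0.51 ± 0.09), Cox10 (0.60 ± 0.05), which makes heme for complex IV, Cyc1 (0.57 ± 0.07), Uqcc2 (0.45 ± 0.09), an assembly factor of complex III, and the copper chaperone Cox17 (0.41 ± 0.05). Surf1, another assembly factor of complex IV, was called lower on 1 of its probes (-0.26 ± 0.08). Import genes had 9 of 25 higher and 2 lower, with Timm8a1 at 1.38 ± 0.10, and coenzyme Q synthesis 7 of 15 higher and 1 lower, with Coq7 at 0.92 ± 0.09. In the citric acid cycle, which supplies NADH to complex I, 6 of 13 were higher and 3 lower. Idh3a differed by 0.70 ± 0.08, Cs by 0.38 ± 0.07 and Fh1 by -0.25 ± 0.08. Among carriers and channels, which exchange ADP, ATP and phosphate with the cytosol, 4 of 6 were higher and 0 lower. Of 16 probes of regulators of the chain and of mitochondrial DNA upkeep, 1 was higher and 1 lower. Genes of mitochondrial DNA had 0 detected probes.

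**Figure D3:**
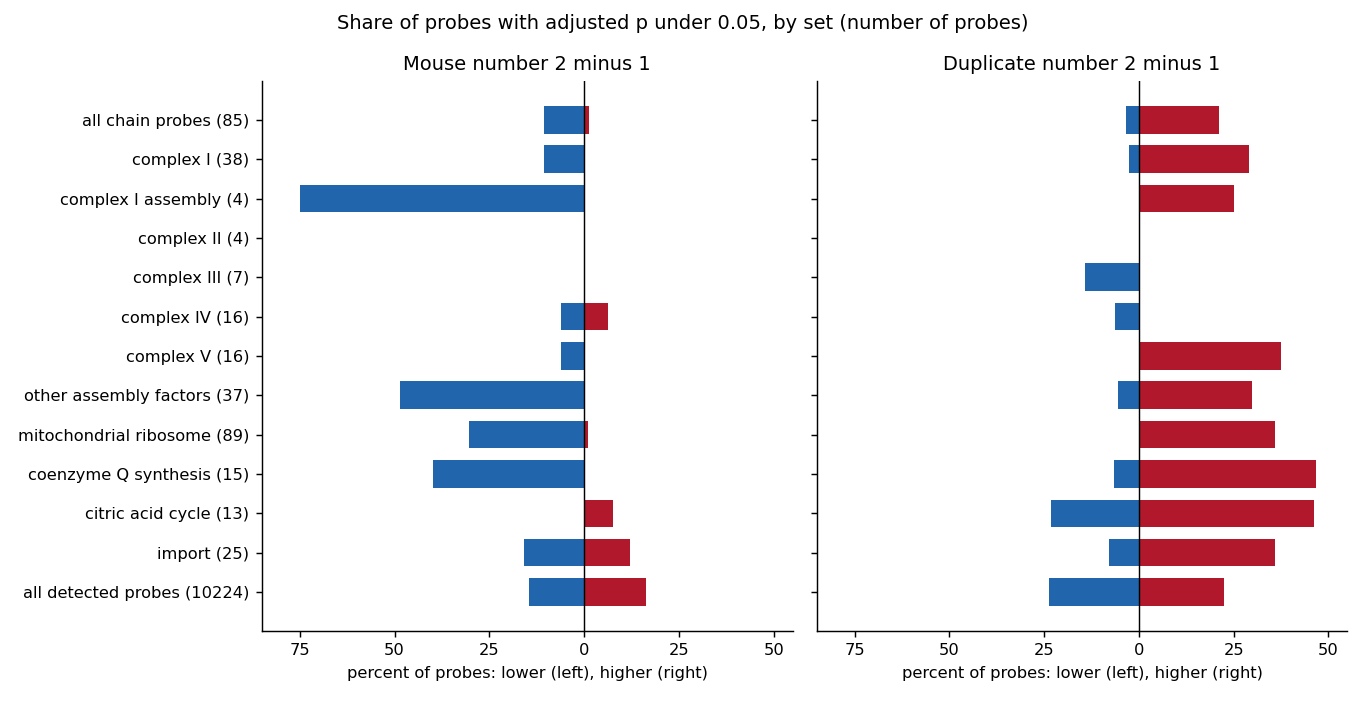
Percent of the probes of each set called higher (right, red) or lower (left, blue) at an adjusted p under 0.05, for mouse number 2 minus 1 and duplicate number 2 minus 1, with the number of probes in parentheses. Assembly factors, the mitochondrial ribosome and coenzyme Q synthesis lie to the left between mouse numbers and to the right between duplicate numbers, while complexes II to IV have few called probes.

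The labelled comparisons were made on the mean of the 2 arrays of each mouse and treatment, with 2 mice per group. Group was the only term in this fit, so agLDL and untreated cells of the same mouse were not paired. Spread shared by the arrays of a mouse stayed in the error, so a lack of calls does not show that nothing differed. Limma called 0 of the 85 probes with agLDL in arrays labelled Ndst1-deficient and 0 with agLDL in those labelled wild-type, and 0 between the genotype labels with or without agLDL, as it did for the interaction. All probes gave 0 called (0%) in each of the 5. At an unadjusted p under 0.05 the 85 had 0 with agLDL in the wild-type label (0.763% of all probes), 0 with agLDL in the deficient label (3.07%), 3 between untreated labels (5.01%), 1 between labels with agLDL (2.66%) and 0 for the interaction (1.12%). With mouse and duplicate number as a replicate block on the 16 arrays, 0 of the 85 were called in any of the 5, against 0, 0.00978%, 0.264%, 0.00978% and 0 percent of all probes in the same order. At an unadjusted p under 0.05 that fit gave 0, 6, 11, 6 and 3 of the 85 (0, 7.06, 12.9, 7.06 and 3.53%), against 3.05, 9.71, 14.3, 7.97 and 3.66% of all probes. The median difference of the 85 was 0.04 with agLDL in the deficient label and 0.02 in the wild-type label, and 0.03 and 0.06 between the labels untreated and with agLDL. Over all probes these medians were between -0.01 and 0.01. Within numbers 1.1, 1.2, 2.1 and 2.2 the deficient agLDL median was 0.0345, 0.187, -0.00392 and -0.0114, so it was highest in number 1.2. The wild-type agLDL median and the untreated genotype median took both signs on leaving out 1 array (lowest -0.0183 and -0.0202) and were -0.00572 and -0.00892 with median scaling, so neither has a direction.

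Sdhb, the iron-sulfur subunit of succinate dehydrogenase, gave the smallest p of the 85 between the genotype labels. Its probe ILMN_2769064 read 10.41, 10.72, 10.40 and 10.57 on the untreated arrays labelled Ndst1-deficient (numbers 1.1, 1.2, 2.1 and 2.2), against 10.09, 10.06, 10.14 and 10.03 on those labelled wild-type. All deficient arrays were above all wild-type ones, in a probe picked for its small p. The share of all probes with such a separation was not counted. The difference was 0.45 ± 0.13 (limma adjusted p = 0.85, and 0.0751 with the replicate block). With agLDL it read 10.75, 10.75, 10.44 and 10.56 in the deficient label, against 10.27, 10.14, 10.47 and 10.13 in the wild-type label, where 1 wild-type array lies inside the deficient range (0.37 ± 0.13, limma adjusted p = 1, and 0.331 with the block). The second Sdhb probe, ILMN_2769065, did not separate: untreated it differed by 0.03 ± 0.14 and with agLDL by 0.14 ± 0.14. The slide cannot be told apart from the label here.

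Atp5d, the delta subunit of the ATP synthase, differed by 0.27 ± 0.11 between the untreated labels (limma adjusted p = 0.983). It read 10.81, 11.13, 10.92 and 11.09 in the deficient label, against 10.53, 10.82, 10.58 and 10.93 in the wild-type label, so the ranges overlap, while within each number the deficient array was higher (limma adjusted p = 0.0983 with the replicate block). On the lower side, the accessory complex I subunit Ndufa7 differed by -0.27 ± 0.11 untreated and by -0.20 ± 0.11 with agLDL, and Ndufb7, another accessory subunit, by -0.31 ± 0.14 untreated (limma adjusted p = 1 for each). Without untreated wild-type array 2.2 the Ndufa7 difference was -0.149. With agLDL, Ndufc1 probe ILMN_2983247 differed by 0.38 ± 0.16 and Atp5g2 by -0.18 ± 0.11, neither called, and without deficient agLDL array 2.2 by 0.232 and -0.0952.

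For agLDL in the arrays labelled Ndst1-deficient, the smallest p on each side belonged to Ndufa1 and Ndufb5 and to Atp5d and Ndufa10. Ndufa1, a small membrane subunit of complex I encoded on the X chromosome, read 12.17, 12.32, 12.02 and 12.09 with agLDL, against 11.80, 11.43, 11.88 and 12.01 untreated. Every agLDL array lay above every untreated one (0.37 ± 0.16, limma adjusted p = 1, and 0.381 with the block). Ndufa1 was also picked for its small p, and the share of all probes so separated was not counted. Ndufb5 read 7.43, 7.63, 7.04 and 7.26 with agLDL, against 7.19, 6.76, 7.04 and 6.85 untreated, and the groups overlap (0.38 ± 0.17, limma adjusted p = 1). On leaving out 1 array Ndufa1 gave 0.28 to 0.465 and Ndufb5 0.268 to 0.483. Both differences were smallest without untreated deficient array 1.2. Atp5d and Ndufa10 differed by -0.17 ± 0.11 and -0.18 ± 0.12, and without untreated deficient array 1.2 by -0.0876 and -0.0758. In arrays labelled wild-type, agLDL gave 0.40 ± 0.24 for Sdhd, 0.20 ± 0.14 for Atp5e, -0.13 ± 0.11 for Atp5c1 and -0.14 ± 0.17 for Ndufb4. Sdhd was detected on 1 of 4 agLDL and 1 of 4 untreated arrays labelled wild-type and Ndufb4 on 6 of the 16 arrays, so both lie mostly near background. Without wild-type agLDL array 1.2 the Sdhd difference was 0.205. The interaction gave 0.36 ± 0.23 for Ndufa1, 0.37 ± 0.24 for Ndufb5, -0.22 ± 0.16 for Atp5d and -0.15 ± 0.17 for Uqcr11, and none was called. Leaving out 1 array moved Atp5d to as little as -0.128 (without untreated wild-type array 2.1) and Uqcr11 to -0.0632 (without untreated deficient array 1.1).

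By complex, the labelled medians stayed small. Complex IV had the highest median between the genotype labels with agLDL, apart from complex II, at 0.11, and complex II had 0.21 over 4 probes that include the Sdhb pair. With agLDL, complex II medians were 0.15 in the deficient label and 0.13 in the wild-type label, and those of the other complexes and the assembly factors lay between -0.03 and 0.07. Nothing in these medians was tested.

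**Figure D4:**
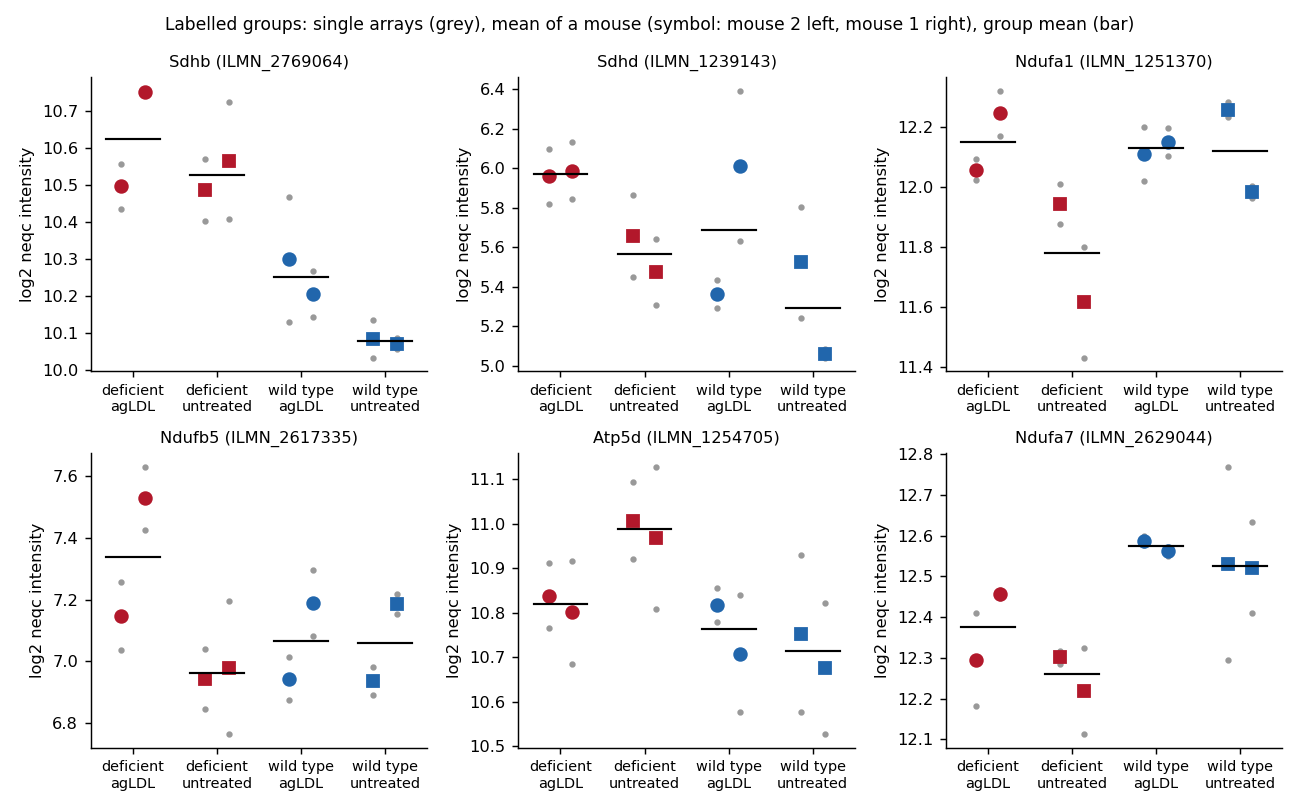
Log2 intensity of 6 respiratory chain probes named in the labelled comparisons, with single arrays in grey, the mean of each mouse as a symbol (mouse number 2 left, mouse number 1 right) and the group mean as a bar. Untreated arrays of this Sdhb probe do not overlap between genotype labels, but the 6 were picked for small p-values and none passed the test.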

How the data were processed

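Probe signal intensity and a detection p-value per array were deposited by the authors as a non-normalized table, per the file headers. The submitters' processing notes name GenomeStudio without a version. The authors also deposited normalized intensities, which served as an alternative. Signals were background-corrected, quantile-normalized and taken to log2 with neqc (offset 16) of limma 3.58.1 in R 4.3.3 (statmod 1.5.0), and probes detected at p under 0.01 on 4 or more of 16 arrays were kept. Precision is limited by the number of arrays.

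Labelled comparisons used limma on 8 means of the 2 arrays of a mouse and treatment, with group as the only term and no pairing by mouse (4 residual degrees of freedom). Number comparisons used 16 arrays with group and number as terms (9 residual degrees of freedom). P-values were Benjamini-Hochberg adjusted over all 10224 probes, at 0.05, and measure a spread that may be technical.

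Same-numbered arrays deviated together in all 24 pairs (r 0.445 to 0.814 over all probes, and 0.0173 to 0.543 over the 85, where pairs of other numbers reached 0.384). By the all-probe values the numbers pair the arrays, although they mark different animals across genotypes. This pairing comes from the labels' numbers and this check.

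The members and gene lists were chosen with earlier results of these data known. Named probes are the 5 highest and 5 lowest called differences between numbers, the 2 smallest p-values on each side of each labelled comparison, set subunits and isoform pairs, and genes whose probes disagree. Other called members and genes of the lists were named after their values were seen. Alternatives covered scaling, background, detection filter, 1 probe per gene, the deposited normalized values, slides, blocks and left-out arrays. Some probes are not reported here.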

Additional observations from a re-analysis of the deposited data

Results flagged for a closer look

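One value stood apart from the others of its group. The Ndufc1 probe ILMN_2983247, for an accessory subunit of complex I, read 10.22 on array 2.1 of the Ndst1-deficient cells given agLDL, against 10.76 to 10.86 on the other 3 arrays of that group (Dixon ratio 0.849). This was the only one of 104 groups of 4 arrays tested over 26 probes to pass, where chance alone passes about 1 in 20 groups.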

How the results depend on the processing

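Calls among the 85 probes between mouse numbers were 10, and 3 and 0 within slide 1 and slide 2 (13.3% and 8.82% of all probes) and 5 on the means of a mouse and treatment (22.3%). Leaving out each array in turn gave 7 to 12. Between duplicate numbers they were 21, and 13 with median scaling (45.4% of all probes) and 4 and 6 within slide 1 and slide 2 (27.2% and 23.7%), with 18 to 24 on leaving out an array. The median duplicate difference was 0.07, and -0.0134 with median scaling. The median difference between the duplicate effects of the mouse numbers was 0.05, and 0.145 with median scaling. The cause was not tested. The median between genotype labels with agLDL was 0.06, and 0.00525 to 0.0875 on leaving out an array, lowest without wild-type agLDL array 1.1 (0.00525) or 2.1 (0.00606). With the mouse and duplicate number as a replicate block, 0 of the 85 were called in the 5 labelled comparisons, as under every other alternative run. Ndufb4 with agLDL in the wild-type label (-0.14) gave -0.314 to 0.0365 on leaving out an array, turning without wild-type agLDL array 1.1. For the 14 named results between numbers, 342 of 362 values under alternatives kept direction and call and 20 lost the call. Many of these values are refits without 1 array, none of which lost a call in these probes, picked for being called. The 20 losses came from the other alternatives, most of them within a single slide. The 20 named labelled results had no call to lose. Dim probes such as Sdhd and Ndufb4 are limited by signal over background.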
